A study of Homo sapiens with 84 samples.

Results

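The comparison is ibrutinib against idelalisib in 4 established human lymphoma cell lines, RIVA, TMD8, SUDHL2 and U2932. It rests on 24 of the 84 arrays of the series: 12 with ibrutinib and 12 with idelalisib, chosen by the labels' line, drug and time. Each line was cultured in vitro with a drug, and RNA was hybridised to Illumina bead arrays at 4, 8 and 12 h, with 1 array for each line, drug and time. The same lines were also given duvelisib, PQR309 or the solvent DMSO, and 4 other lines of the series were given PQR309 and DMSO only. The labels state no dose, no genotype and not whether the cultures were separate. All 4 are usually counted as activated-type diffuse large B-cell lymphoma, which the labels do not state. The p-values therefore measure the spread between these lines or these arrays, and 4 lines set how precise a mean can be.

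The B-cell receptor signals through a set of membrane-proximal kinases. Bruton's tyrosine kinase, encoded by BTK, activates a phospholipase and from there calcium, protein kinase C, ERK and NF-kB. The delta form of phosphoinositide 3-kinase, encoded by PIK3CD, makes the membrane lipid that recruits AKT, which holds FOXO factors out of the nucleus, and also BTK itself. Ibrutinib binds BTK covalently, along with related kinases that carry a matching cysteine, and idelalisib blocks PI3K delta. The comparison shows where mRNA levels differ between cells given a BTK inhibitor and cells given a PI3K delta inhibitor.

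Each value below is a log2 level after joint normalization, and each difference is ibrutinib minus idelalisib within a line and time, so 1 unit is a doubling. A gene was called at a Benjamini-Hochberg adjusted p under 0.05 from limma over 12557 genes, two-sided. Values at 3 times are given in the order 4, 8 and 12 h. A level of 6.26 stood in for the detection limit. The B-cell genes MS4A1, CD79A, CD79B, CD22 and CD37 lay above it on 24 of 24 arrays, and PAX5 on 0. Of 6 T-cell genes, CD3D, CD3E, CD3G and CD4 lay above it on 0 arrays, CD2 on 3 and CD8A on 7, of which RIVA held 6. Of 5 myeloid genes, CSF1R lay above it on 0, LYZ on 2, MPO on 4, FCN1 on 7 and CD14 on 21. Of 6 genes of stroma and endothelium, COL3A1, PDGFRB and VWF lay above it on 0, COL1A2 on 1, COL1A1 on 3 and PECAM1 on 11, of which RIVA held 6. The part of such markers in the results was not tested. Before normalization the 95th percentile of intensity, a measure of an array's brightness, ran from 586.7 to 1711 over the 24 arrays. In such bulk RNA, fewer cells with an mRNA and less mRNA per cell cannot be told apart.

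The largest mean difference belonged to PPP1R15A, which encodes the stress-induced regulatory subunit of the phosphatase that dephosphorylates the translation factor eIF2 alpha. In TMD8 its level was 10.07, 9.98 and 10.34 with ibrutinib, against 11.56, 11.12 and 11.74 with idelalisib. In SUDHL2 it was 9.16, 8.41 and 8.85 with ibrutinib, against 10.05, 9.45 and 10.22 with idelalisib. U2932 gave 8.98, 9.23 and 8.31 with ibrutinib, against 9.73, 10.32 and 9.69 with idelalisib. The levels of the 2 drugs did not overlap in any of these 3 lines. RIVA gave 8.22, 9.34 and 8.12 with ibrutinib, against 8.73, 9.57 and 8.83 with idelalisib, and there they overlapped, though ibrutinib was lower at each time. Over the lines PPP1R15A averaged 9.08 ± 0.71 with ibrutinib and 10.08 ± 1.01 with idelalisib (SD, n = 4), a difference of -1.0 ± 0.12 (SE; 95% interval -1.29 to -0.71), or 2.0-fold lower, with the sign the same in 12 of 12 pairs. It did not pass over all genes (adjusted p = 0.614 in limma, n = 4 lines). Within a line, limma called it lower in TMD8 (-1.34 ± 0.13, adjusted p = 0.000238), SUDHL2 (-1.10 ± 0.13, adjusted p = 0.00645) and U2932 (-1.07 ± 0.13, adjusted p = 0.00207), and in RIVA it was at -0.49 ± 0.13 (adjusted p = 0.175). These SEs come from the spread between times, pooled over the lines (n = 3 times per line). The limma call was lost in TMD8 without the 4 h arrays (adjusted p = 0.0876) and in U2932 without the 8 h arrays (0.145). In SUDHL2 it was lost without the 4 h (0.275) or 8 h arrays (0.323). The sign could not change in these runs, since it was the same at each time.

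The promoters of PPP1R15A and of EGR1 and TNF, whose levels separate the drugs most in U2932, are shown as the 250 bases before the RefSeq start on GRCh38.p14. They lie at chr19:48872171-48872420 for PPP1R15A, chr5:138465229-138465478 for EGR1 and chr6:31575315-31575564 for TNF, all on the plus strand. Capitals mark matches to 4 sets of letters searched on both strands: the cyclic AMP response element TGACGTCA, the AP-1 site TGACTCA, the serum response element of EGR1 and the TATA box TATAAA.
PPP1R15A: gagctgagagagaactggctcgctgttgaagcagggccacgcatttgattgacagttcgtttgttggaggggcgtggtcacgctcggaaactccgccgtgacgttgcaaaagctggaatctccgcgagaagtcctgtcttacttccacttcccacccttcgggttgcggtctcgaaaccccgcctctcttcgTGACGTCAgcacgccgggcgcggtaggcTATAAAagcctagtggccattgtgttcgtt
EGR1: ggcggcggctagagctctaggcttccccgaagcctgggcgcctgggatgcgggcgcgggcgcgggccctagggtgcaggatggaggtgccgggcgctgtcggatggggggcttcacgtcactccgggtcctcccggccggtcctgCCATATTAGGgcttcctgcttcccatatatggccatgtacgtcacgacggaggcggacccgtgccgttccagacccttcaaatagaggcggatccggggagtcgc
TNF: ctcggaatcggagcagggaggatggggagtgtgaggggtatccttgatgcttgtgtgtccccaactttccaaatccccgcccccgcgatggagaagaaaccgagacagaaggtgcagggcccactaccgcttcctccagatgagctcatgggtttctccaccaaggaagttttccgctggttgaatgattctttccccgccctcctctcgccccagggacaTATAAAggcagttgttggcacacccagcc
The PPP1R15A window holds a cyclic AMP response element beginning 58 bases before the start and a TATA box at 30 bases, the EGR1 window a serum response element at 105 bases, and the TNF window a TATA box at 29 bases. Of 35116 human promoter windows of this length, 1.65% hold the first of these, 10.7% the TATA box, 0.0313% the serum response letters and 4.20% the AP-1 site. These shares and the capitals cover the exact letters only, and other forms of an element were not searched. The serum response letters are those of EGR1 itself, so the match in EGR1 was given in advance. These matches describe letters and are not evidence of binding.

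TIPARP, a mono-ADP-ribosyltransferase that the aryl hydrocarbon receptor induces, had the next largest mean difference. Its levels in TMD8 were 9.95, 9.39 and 9.59 with ibrutinib, against 11.25, 10.75 and 10.94 with idelalisib. U2932 gave 9.08, 9.13 and 8.86 with ibrutinib, against 10.07, 10.004 and 9.96 with idelalisib. SUDHL2 gave 9.50, 9.73 and 9.80 with ibrutinib, against 10.31, 10.15 and 10.18 with idelalisib. In these 3 lines the drugs did not overlap, and in RIVA, with 8.40, 8.91 and 8.55 on ibrutinib against 8.92, 9.19 and 8.78 on idelalisib, they did. The mean difference was -0.80 ± 0.15 (SE, n = 4), with levels of 9.24 ± 0.51 on ibrutinib and 10.04 ± 0.83 on idelalisib (SD), and ibrutinib was lower in 12 of 12 pairs. Limma called TIPARP lower in TMD8 (-1.34, adjusted p = 1.11e-05) and U2932 (-0.99, adjusted p = 0.000277), while SUDHL2 (-0.54, adjusted p = 0.0820) and RIVA (-0.34, adjusted p = 0.209) did not pass. The TMD8 call held in 7 of 7 alternatives.

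CD69, an activation antigen that holds lymphocytes in tissue and is induced by receptor signals, stood at 8.42, 9.63 and 9.29 in RIVA with ibrutinib, against 9.39, 10.79 and 10.86 with idelalisib. In U2932 it was 8.17, 8.05 and 7.13 with ibrutinib, against 8.97, 8.70 and 8.57 with idelalisib. The drugs did not overlap in U2932 and overlapped in the other 3 lines. The mean difference was -0.77 ± 0.15 (SE, n = 4), and it was called in RIVA (-1.23, adjusted p = 0.0252) but not in U2932 (-0.97, adjusted p = 0.0554), SUDHL2 (-0.69, adjusted p = 0.165) or TMD8 (-0.17, adjusted p = 0.725). A second, dimmer CD69 probe gave a mean of -0.40. The call in RIVA was lost without the 4 h (adjusted p = 0.259) or 8 h arrays (0.249).

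JUN, the AP-1 subunit, averaged -0.69 ± 0.14 and was called lower in SUDHL2, where it stood at 6.77, 7.97 and 7.82 with ibrutinib, against 8.29, 9.01 and 8.57 with idelalisib (-1.10, adjusted p = 0.0427). Its relative JUND was called in SUDHL2 as well (-0.95, adjusted p = 0.0468), with 11.48, 11.01 and 10.99 on ibrutinib, against 12.35, 12.06 and 11.89 on idelalisib. For both genes the drugs did not overlap in SUDHL2. The JUN levels of the drugs also did not overlap in RIVA (-0.84) or U2932 (-0.69), which did not pass, and they overlapped in TMD8 (-0.13). The JUN call in SUDHL2 was lost without the 4 h (adjusted p = 0.318) or 8 h arrays (0.772), and that of JUND held in 1 of 7 alternatives.

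Over the 3 times and 4 lines, limma called 0 of 12557 genes (percent called 0), with 950 at an unadjusted p under 0.05. Of these, 349 were higher with ibrutinib (2.78% of all genes) and 601 lower (4.79%). The smallest adjusted p was 0.614. The same sign in all 4 lines, which is no test, was seen in 652 genes for higher (5.19%) and 1240 for lower (9.87%). The typical 95% interval had a median half-width of 0.15. Mean differences beyond 0.5 in size were found for 9 genes, 4 lower (PPP1R15A, TIPARP, CD69 and JUN) and 5 higher. The 5 were SPIB (0.62), the adaptor gene YWHAE (0.59), the receptor gene TLR10 (0.52), the mitochondrial carrier UCP2 (0.51) and CD37 (0.51). Without RIVA limma called 1 gene, PPP1R15A (adjusted p = 0.0362), and without SUDHL2 it called 6, all higher, CD74, the invariant chain of MHC class II, among them (0.62, adjusted p = 0.0448).

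The 12 genes of smallest p in each direction with 1 sign in all 4 lines did not pass either. The 12 higher ones had means of 0.27 (PLBD1) to 0.49 (NAPSA). They included the lymphoid transcription factor IKZF1 (0.30 ± 0.06), the Fc receptor-like gene FCRL3 (0.29 ± 0.06), the transcription coactivator ZMIZ1 (0.42 ± 0.06), the adhesion adaptor TNS3 (0.32 ± 0.06), the splicing factor SFPQ (0.34 ± 0.07) and ERF (0.30 ± 0.06), a repressor that ERK inactivates. The probe of POTEF (0.30 ± 0.06) belongs to a family of near-identical copies and is uncertain. Of the 12 lower ones, 8 had means of -0.38 to -0.30. Among these were RAB23 (-0.30 ± 0.05), a small GTPase, and CLDND1 (-0.32 ± 0.06), lower in 12 of 12 pairs each. In RIVA at 12 h the RAB23 difference was only -0.0003. The endothelial adaptor CCM2 (-0.34 ± 0.06), the coenzyme Q gene COQ10B (-0.31 ± 0.06) and the histone gene H2BC8 (-0.31 ± 0.06) were among them too.

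Single times gave the same count. Limma called 0 genes at 4 h (802 at an unadjusted p under 0.05, with 0.136 as the smallest adjusted p), 0 at 8 h (669, smallest 0.909) and 0 at 12 h (996, smallest 0.318). For the change of the drug difference between 12 h and 4 h it also called 0 (1418, smallest 0.311). At 4 h the smallest p belonged to TIPARP (-0.91 ± 0.12), followed by PPP1R15A (-0.91 ± 0.14) and, on the higher side, TNS3 (0.57 ± 0.09) and the survival kinase PIM2 (0.58 ± 0.10). At 12 h PPP1R15A was at -1.22 ± 0.14, NAPSA at 0.75 ± 0.13 and the NF-kB subunit REL at 0.63 ± 0.12. For the change, FASN, the fatty acid synthase, had the smallest p (-0.81 ± 0.13), with 0.49 at 4 h and -0.32 at 12 h, and the replication licensing inhibitor GMNN was at 0.64 ± 0.12. CD69 passed at 4 h when TMD8 was left out (-0.89, adjusted p = 0.0147), and PPP1R15A at 8 h when RIVA was left out (-1.08, adjusted p = 0.0436).

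**Figure D1:**
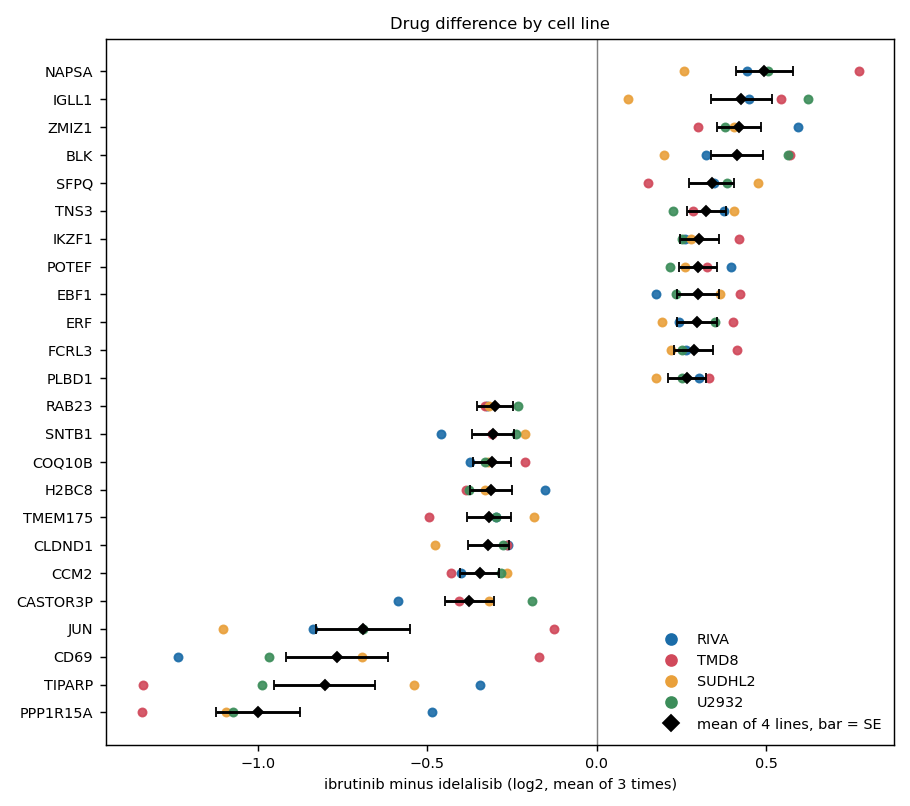
Ibrutinib minus idelalisib, in log2 units on the horizontal axis, for the 24 genes of smallest p with 1 sign in all 4 lines; coloured points are lines (mean of 3 times) and black diamonds the mean of 4 lines with its SE. PPP1R15A, TIPARP, CD69 and JUN have means of -1.0, -0.80, -0.77 and -0.69 and the widest spread between lines, and the means of the other 20 genes lie within 0.5 of 0.

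Among the genes higher with ibrutinib, SPIB, a B-cell transcription factor of the IRF4 circuit, stood at 9.68, 9.66 and 11.32 in RIVA with ibrutinib, against 8.54, 8.57 and 10.22 with idelalisib. The ranges overlapped, although ibrutinib was higher at each time. SPIB was called in RIVA (1.11 ± 0.16, adjusted p = 0.0252), a call lost without the 4 h (adjusted p = 0.344) or 8 h arrays (0.175), and averaged 0.62 ± 0.14 over the lines. BLK, a Src-family kinase that ibrutinib binds, averaged 0.41 ± 0.08 and was called in TMD8 (0.57, adjusted p = 0.0278). There its levels were 6.93, 7.55 and 7.51 with ibrutinib, against 6.30, 7.28 and 6.69 with idelalisib, which overlap. EBF1, a factor that sets B-cell identity, was higher in 12 of 12 pairs (mean 0.30 ± 0.06) and called in TMD8 (0.42, adjusted p = 0.0241). NAPSA, an aspartic protease, was also higher in 12 of 12 pairs, though by only 0.004 in RIVA at 4 h. Its mean was 0.49 ± 0.08, and limma called it in TMD8 (0.77, adjusted p = 0.0195). EBF1, NAPSA, PPP1R15A, TIPARP, RAB23 and CLDND1 were named for a small p and 1 sign in all 4 lines. Their 12 of 12 pairs are partly given by that choice and are no test.

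The mRNAs of the drug targets did not pass. BTK was at 0.13 ± 0.08 (SE, n = 4, adjusted p = 0.737 in limma; 95% interval -0.05 to 0.32). PIK3CD was at 0.25 ± 0.07 (adjusted p = 0.614; 95% interval 0.08 to 0.42), and it was higher in all 4 lines, by 0.48 in TMD8 and 0.08 in RIVA. PIK3CB was at -0.03 (0.02 without TMD8) and PIK3CG at 0.08. These are mRNA levels, and kinase activity was not measured.

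TMD8 had the most calls: 223 genes higher with ibrutinib (1.78% of all genes) and 150 lower (1.19%), with 2130 genes at an unadjusted p under 0.05. The largest calls were the falls of PPP1R15A and TIPARP, and the largest rise was TNF. TNF, the inflammatory cytokine, stood at 7.37, 8.22 and 8.81 with ibrutinib, against 6.74, 7.25 and 7.11 with idelalisib (1.10 ± 0.23, adjusted p = 0.0223). The drugs did not overlap. On the raw DMSO arrays TNF stood above both drugs, at 9.03, 11.37 and 10.38. The TNF call was lost without the 4 h (adjusted p = 0.200) or 8 h arrays (0.0773). UNC93B1, which carries toll-like receptors to endosomes, rose by 1.05 ± 0.16 (adjusted p = 0.00673), with 8.12, 9.26 and 8.62 on ibrutinib, against 6.92, 8.50 and 7.43 on idelalisib, and these overlapped. The chemokine gene CXCL10 was at 9.10, 9.04 and 8.54 with ibrutinib, against 8.33, 8.19 and 7.63 with idelalisib, without overlap (0.85 ± 0.09, adjusted p = 0.000733). Also called higher were the apoptosis inhibitor BCL2L1 (0.88), the NF-kB target PLEK (0.89), the coactivator BCL3 (0.69) and the deubiquitinase TNFAIP3 (0.43).

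Gene lists in TMD8 are read beside the 1.78% of all genes called higher and the 1.19% called lower. Of 27 measured B-cell identity genes 6 were called higher and 0 lower: CD37 (0.74), TNFRSF13B (0.62), FCRL5 (0.58), BLK (0.57), EBF1 (0.42) and CD72 (0.42). The list had a median of 0.34 in TMD8, beside 0.002 over all genes. Of 31 interferon response genes 5 were higher, the antiviral genes IFITM1 (0.65), IFIT1 (0.59), SAMD9L (0.52), IFIT2 (0.49) and IFI35 (0.42), and the list median was 0.31. Of 34 NF-kB targets 4 were higher, TNF among them, and the median was 0.06. In U2932 this list went the other way, with 3 called lower, 0 higher and a median of -0.06. Of all genes, 0.143% were called lower and 0.0637% higher in U2932. Of 29 FOXO targets 3 were lower in TMD8, KLF2 (-0.69), TXNIP (-0.57) and TSC22D3 (-0.46), and 0 higher. KLF2, a quiescence and homing factor that FOXO1 raises, was at 8.35, 9.31 and 9.70 in TMD8 with ibrutinib, against 9.20, 9.78 and 10.45 with idelalisib (adjusted p = 0.0119), and the ranges overlapped.

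The TMD8 calls depend on which times enter. Without the 4 h arrays limma called 1 gene, TIPARP, without the 8 h arrays 447, of which 207 were among the 373, and without the 12 h arrays 160, of which 117 were. The TMD8 difference at 4 h correlated with that at 12 h at r = 0.69 across genes, but at 0.16 with that at 8 h, and that at 8 h with that at 12 h at 0.09; genes are not independent, so these carry no p. Before normalization the 95th percentile of intensity in TMD8 was 1161, 1144 and 1526 with ibrutinib, against 1179, 1393 and 711.0 with idelalisib. The 12 h idelalisib array was thus the dimmest of the 6, and its part in the calls was not tested beyond the count without 12 h.

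RIVA had 17 genes called higher (0.135%) and 11 lower (0.0876%), with 1233 genes at an unadjusted p under 0.05. Besides SPIB, the largest rises were TLR10, a toll-like receptor of B cells (1.20 ± 0.19, adjusted p = 0.0252), the glucose carrier SLC2A6 (1.08), SNX29 (1.01, a call that held in 1 of 7 alternatives) and NAPSB (0.84), a pseudogene of NAPSA whose probe is uncertain. TLR10 stood at 8.91, 9.91 and 10.43 with ibrutinib, against 8.45, 8.30 and 8.88 with idelalisib, without overlap. RAC2 (0.81), a GTPase of blood cells, the adaptor LAT2 (0.78), the desaturase FADS1 (0.72), the stress gene DDIT4 (0.57) and BCL11A (0.56), a B-cell transcription factor, were called too. The largest falls were CD69 and KLF2, and KLF2 stood at 9.79, 10.23 and 9.89 with ibrutinib, against 10.24, 11.26 and 10.91 with idelalisib (-0.83 ± 0.12, adjusted p = 0.0252). The KLF2 ranges of the drugs did not overlap. In SUDHL2 and U2932 KLF2 lay near the level of detection. The stress gene NDRG1 (-0.59) fell too. Without the 8 h arrays limma called 0 genes in RIVA (1178 at an unadjusted p under 0.05), without the 4 h arrays 1, TLR10, and without the 12 h arrays 86, of which 18 were among the 28. The 95th percentile of raw intensity in RIVA was 657.1, 1109 and 1606 with ibrutinib, against 1201, 1393 and 1354 with idelalisib, and its part in the calls was not tested.

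SUDHL2 had 2 genes called higher (0.0159%) and 6 lower (0.0478%), with 1560 genes at an unadjusted p under 0.05. CCDC88C, which encodes a Dishevelled-binding protein, rose by 0.55, and HNRNPA1P33, a pseudogene whose probe can read its parent's copies and is uncertain, by 0.80. Besides PPP1R15A, JUN and JUND, the vesicle gene STX11 (-0.61), ZNF775 (-0.72) and RGS20 (-0.59) fell, and the ZNF775 call held in 2 of 7 alternatives. No SUDHL2 gene was called without the 4 h arrays (1131 at an unadjusted p under 0.05) or without the 8 h arrays (759), and 7 were called without the 12 h arrays. The ibrutinib arrays of SUDHL2 were brighter at each time, with a 95th percentile of raw intensity of 1077, 1014 and 1711, against 915.4, 874.0 and 742.2 with idelalisib, and the part of this in the result was not tested.

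U2932 had 8 genes called higher (0.0637%) and 18 lower (0.143%), with 1286 genes at an unadjusted p under 0.05. TNF was the largest fall: it stood at 6.74, 6.94 and 6.66 with ibrutinib, against 8.23, 9.05 and 9.77 with idelalisib (-2.23 ± 0.23, adjusted p = 0.000277), without overlap. The TNF call was lost without the 8 h arrays (adjusted p = 0.0903). EGR1, an immediate early transcription factor of ERK signalling, stood at 6.61, 7.12 and 7.21 with ibrutinib, against 8.08, 8.89 and 8.83 with idelalisib (-1.62 ± 0.23, adjusted p = 0.00957), again without overlap, a call lost without the 4 h (adjusted p = 0.0682) or 8 h arrays (0.209). In RIVA, EGR1 went the other way without passing, with 8.50, 9.89 and 9.33 on ibrutinib, against 7.15, 9.05 and 9.84 on idelalisib (0.56, adjusted p = 0.415). The chemokine gene CCL3L3, which has near-identical copies, read 6.14, 5.91 and 6.03 with ibrutinib, all under the level that stands in for detection, against 7.34, 6.76 and 7.40 with idelalisib. It was therefore at least 1.87-fold lower (adjusted p = 0.000127). LTA, which encodes lymphotoxin alpha, was at 7.40, 8.09 and 7.35 with ibrutinib, against 7.76, 8.96 and 9.15 with idelalisib (-1.01, adjusted p = 0.0487), with overlap. It passed in 0 of 7 alternatives. The transcription regulators LMO2 (-0.92) and HHEX (-0.80) and the kinase MAP3K8 (-0.77) also fell. Among the rises were the interleukin 10 receptor gene IL10RA (0.75), ABI3 (0.75), RGCC (0.64), IGLL1 (0.62) and HSH2D (0.60), of which IGLL1 held in 3 and HSH2D in 2 of 7 alternatives. Without the 8 h arrays limma called 1 gene, CCL3L3, without the 4 h arrays 6 and without the 12 h arrays 7. The 95th percentile of raw intensity in U2932 was 586.7, 1162 and 874.0 with ibrutinib, against 752.9, 1120 and 1547 with idelalisib. The ibrutinib array at 4 h was the dimmest of the 24, ibrutinib was also the dimmer at 12 h, and the part of this in the calls was not tested.

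U2932 also had the lowest median in the early B-cell receptor list, at -0.51 over 20 measured genes, beside -0.02 over all genes; 3 of the 20 were called lower, EGR1, LTA and CCL3 (-0.51), and 0 higher, and of 14 cytokine and chemokine genes 4 were called lower and 0 higher. The 4 were TNF, LTA, CCL3L3 and CCL3, so LTA and CCL3 count in both lists, which are not separate observations. Both counts are read beside the 0.143% of all genes called lower and the 0.0637% called higher in U2932. In TMD8 the early list's median was 0.06 with MYC, the growth regulator, called higher (0.73).

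**Figure D2:**
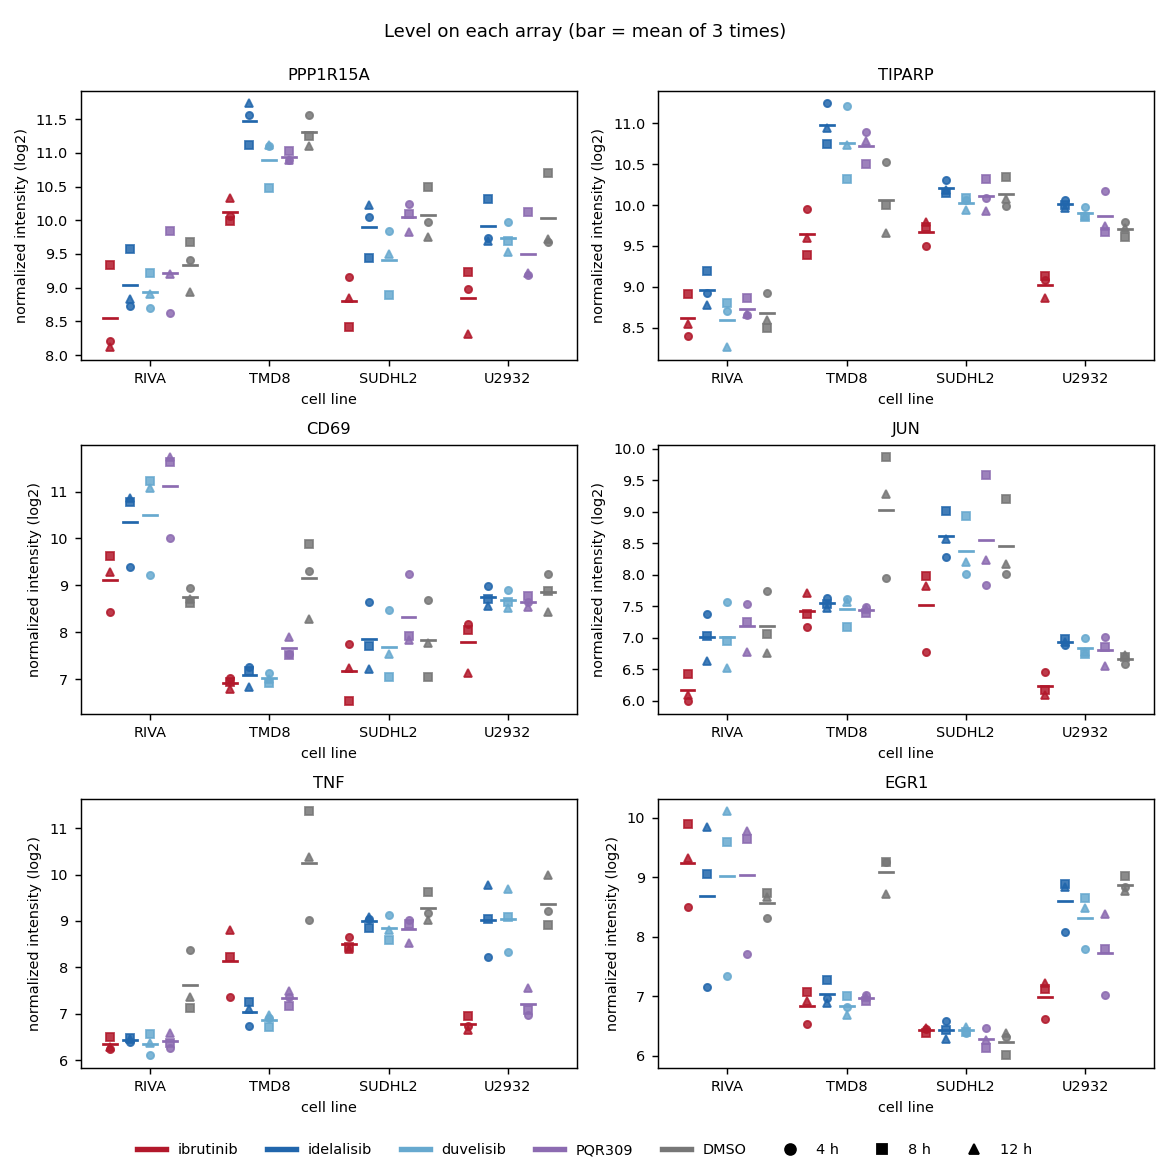
Normalized log2 level of PPP1R15A, TIPARP, CD69, JUN, TNF and EGR1 on each array, with the lines along the horizontal axis and ibrutinib, idelalisib, duvelisib, PQR309 and DMSO from left to right within a line; all are from the raw table, symbols mark 4, 8 and 12 h and bars the mean of 3 times. PPP1R15A lies lower with ibrutinib than with idelalisib at each time in every line, and TNF in U2932 runs from 6.66 to 6.94 with ibrutinib, against 8.23 to 9.77 with idelalisib.

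The drug difference itself differed between lines for 6 genes (0.0478% of all genes, 1943 at an unadjusted p under 0.05 in the moderated F test of limma). TNF (adjusted p = 0.00242) was higher with ibrutinib in TMD8 and lower in U2932. The TNF difference was 1.10 in TMD8, -0.09 in RIVA, -0.49 in SUDHL2 and -2.23 in U2932. CCL3L3 passed as well (adjusted p = 0.00242), but its levels lay under the stand-in level with ibrutinib in U2932 and with both drugs in TMD8, so the sizes in those lines are not measured and this call is uncertain. TIPARP (adjusted p = 0.0375) was below 0 in each line, by sizes that ran from -0.34 in RIVA to -1.34 in TMD8. CXCL10 (adjusted p = 0.0133) was higher with ibrutinib in TMD8 and was at 0.13 in SUDHL2 and -0.25 in U2932; in RIVA it lay under the stand-in level with idelalisib. TCIRG1, a proton pump subunit, was higher in TMD8 (0.65) and lower in SUDHL2 (-0.51), where its levels were 8.67, 8.63 and 8.64 with ibrutinib, against 9.07, 9.15 and 9.26 with idelalisib (adjusted p = 0.00975). STXBP2, a regulator of granule release, went likewise (0.93 in TMD8, -0.70 in SUDHL2, adjusted p = 0.0419), and did not pass with the authors' normalized values (adjusted p = 0.0729) or without background correction (0.0695). Against duvelisib, ibrutinib was higher for TCIRG1 in both SUDHL2 (0.32) and TMD8 (0.33). STXBP2 was likewise higher against duvelisib, by 0.49 in SUDHL2 and 0.39 in TMD8. The idelalisib arrays of SUDHL2 were dimmer than the ibrutinib arrays, and their part in these opposite signs was not tested. The F test called 0 genes without the 4 h arrays (840 at an unadjusted p under 0.05), 3 without the 8 h arrays and 47 without the 12 h arrays.

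Of 424 genes called in any line, 414 were called in 1 line and 10 in 2 or more. TMD8 had 373 calls, RIVA 28, SUDHL2 8 and U2932 26, so most TMD8 calls could not be shared. The 414 therefore do not measure how far the lines agree. Overlap with the TMD8 calls is read beside the 1.78% of all genes called higher there and the 1.19% called lower. PPP1R15A was called in 3 lines. KLF2, LAT2 and RGS19 were called in RIVA and TMD8. TNF, TIPARP, IGLL1 and HSH2D were called in TMD8 and U2932, TNF in opposite directions. CCDC88C and RGS20 were called in TMD8 and SUDHL2. Of the 223 genes higher in TMD8, 75.8% were also above 0 in RIVA (43.6% of all genes were) and 80.7% in U2932 (42.8%), but 29.1% in SUDHL2 (49.6%). Of the 150 lower in TMD8, 78% were below 0 in RIVA (56.4% of all genes) and 85.3% in U2932 (57.2%), and 46% in SUDHL2 (50.4%). Across genes the mean differences of TMD8 and U2932 correlated at 0.32, of RIVA and U2932 at 0.38, and of TMD8 and SUDHL2 at -0.23; the lines share no arrays, and genes are not independent.

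**Figure D3:**
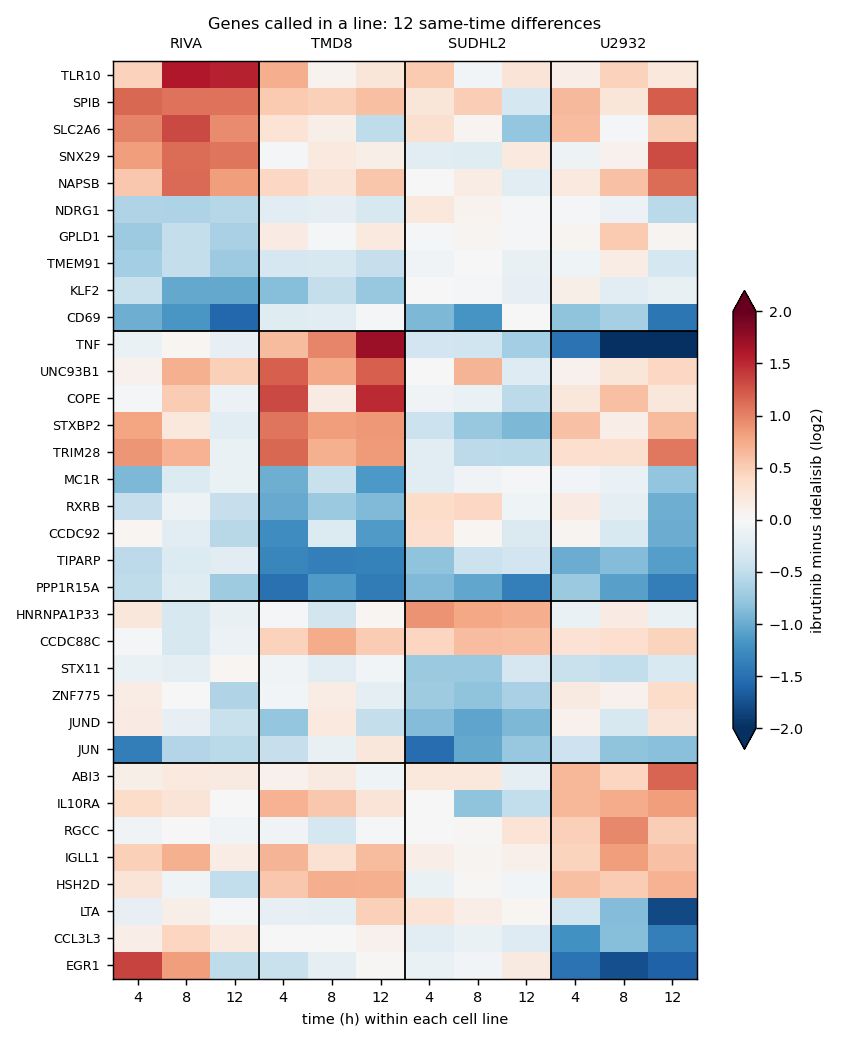
Ibrutinib minus idelalisib at 4, 8 and 12 h in each line, in log2 units, for 34 named genes called in at least 1 line; rows are genes, columns are times within a line, and the colour scale ends at 2 in either direction. PPP1R15A is lower in all 12 cells, and TNF is opposite in sign in TMD8 and U2932.

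Lists were described over the lines by their medians, beside -0.01 for all genes, and no member passed over all genes. Of 27 B-cell identity genes the median was 0.18, with 9 higher and 0 lower at an unadjusted p under 0.05 in limma. Of all genes 2.78% were higher and 4.79% lower at that p. In all 4 lines 5 were higher, IKZF1, FCRL3, EBF1, BLK and SPIB, 18.5% of the list beside 5.19% of all genes. Of 9 genes of the IRF4 circuit 4 (44.4%) were higher in all 4 lines, SPIB, IRF4 (0.37), BCL6 (0.26) and SPI1 (0.20), and the median was 0.12. SPIB is in both of these lists, so they are not separate observations. The 19 cholesterol synthesis genes had a median of 0.18, and 4 (21.1%) were higher in all 4 lines, with ACAT2 at 0.31 and SQLE at 0.27. Histone genes had a median of -0.11, with 5 of 13 lower in all 4 lines, beside 9.87% of all genes. The interferon list had a median of 0.07 over the lines, with 0.31 in TMD8 and values of -0.02 to 0.07 in the others. The 20 PI3K pathway genes had a median of 0.01 and the 12 ERK feedback genes -0.04.

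**Figure D4:**
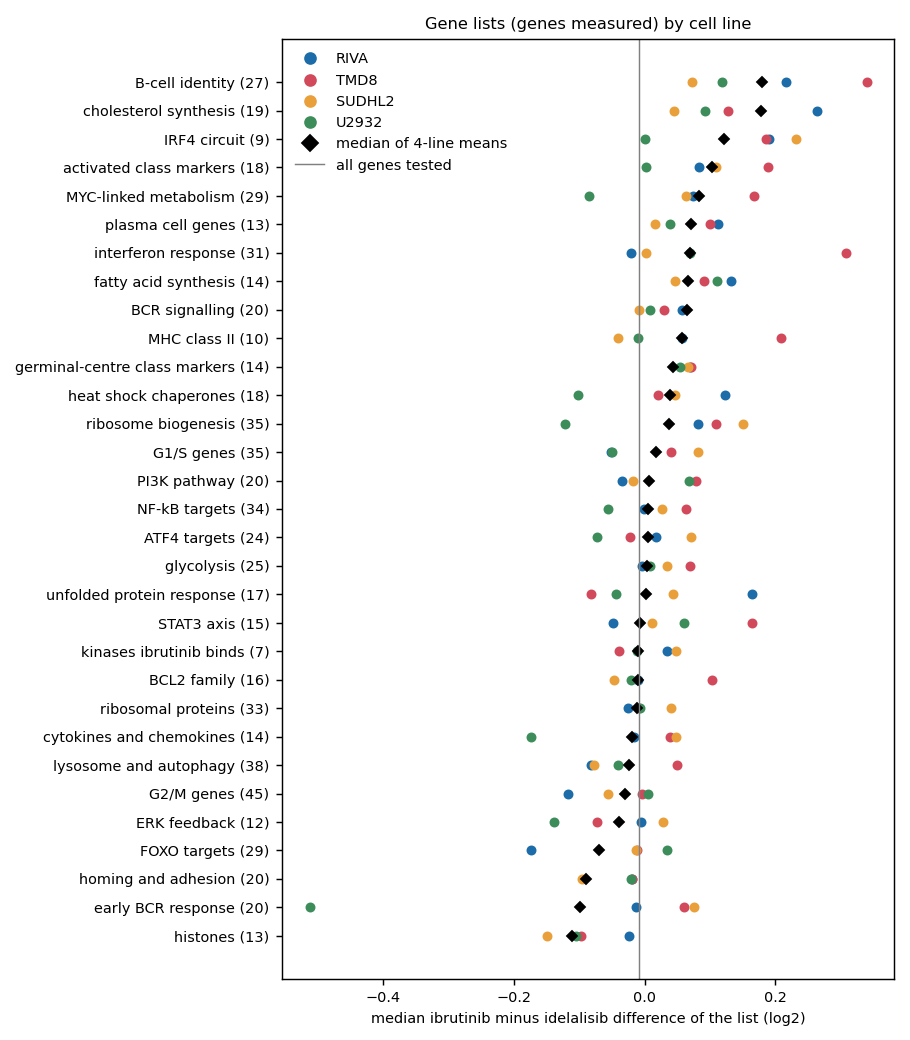
Median of ibrutinib minus idelalisib, in log2 units on the horizontal axis, for 31 gene lists; coloured points are the median within a line, black diamonds the median of the members' means over 4 lines, and the grey line the median of all genes. B-cell identity and cholesterol synthesis reach 0.18, histones -0.11, and the early B-cell receptor list -0.51 in U2932.

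Values relative to DMSO are given without a test, since both drugs share the DMSO arrays. The raw and the authors' normalized tables rank the probes of the DMSO arrays differently in these lines, while those of the inhibitor arrays have the same ranks, so both are given; the means over lines are ± SD (n = 4). PPP1R15A was at -1.10 ± 0.22 with ibrutinib and -0.10 ± 0.20 with idelalisib on the raw arrays, but at 0.05 ± 0.18 with ibrutinib and 1.01 ± 0.53 with idelalisib in the authors' table. Which of the drugs departs from DMSO for PPP1R15A therefore depends on the table. TIPARP was at -0.40 ± 0.26 with ibrutinib and 0.40 ± 0.36 with idelalisib on the raw arrays, and at 0.25 ± 0.15 with ibrutinib and 1.02 ± 0.34 with idelalisib in the authors' table. The sign of the TIPARP mean with ibrutinib thus also depends on the table. CD69 was at -0.91 ± 1.07 with ibrutinib and -0.14 ± 1.499 with idelalisib on the raw arrays. In the authors' table it was at 0.25 ± 0.58 with ibrutinib and 0.94 ± 1.02 with idelalisib. Both CD69 means thus change sign with the table. In U2932, CD69 with ibrutinib was at -1.07 on the raw arrays and 0.58 in the authors' table. In RIVA and TMD8 the CD69 signs did not change. CD69 in RIVA was at 0.35 with ibrutinib and 1.59 with idelalisib on the raw arrays. In the authors' table it was at 0.80 with ibrutinib and 1.98 with idelalisib there. SPIB in RIVA was at -0.06 with ibrutinib and -1.17 with idelalisib on the raw arrays, and at 0.08 with ibrutinib and -0.98 with idelalisib in the authors' table. TLR10 in RIVA was at -0.38 with ibrutinib and -1.58 with idelalisib on the raw arrays, and at -0.32 with ibrutinib and -1.46 with idelalisib in the authors' table. In U2932, TNF was at -2.59 with ibrutinib and -0.35 with idelalisib on the raw arrays, and at -1.85 with ibrutinib and 0.07 with idelalisib in the authors' table. EGR1 in U2932 was at -1.89 with ibrutinib and -0.27 with idelalisib on the raw arrays, and at -1.43 with ibrutinib and -0.06 with idelalisib in the authors' table. In TMD8, TNF was lower with both drugs in both tables, at -2.12 with ibrutinib and -3.22 with idelalisib on the raw arrays, and at -2.22 with ibrutinib and -3.15 with idelalisib in the authors' table. In SUDHL2 the raw DMSO array at 8 h was dim, with a 95th percentile of 300.9, and without it PPP1R15A was at -0.85 with ibrutinib and 0.27 with idelalisib on the raw arrays. Against duvelisib, a PI3K delta and gamma inhibitor, ibrutinib left PPP1R15A at -0.66 ± 0.22, TIPARP at -0.58 ± 0.51, CD69 at -0.73 ± 0.55 and JUN at -0.58 ± 0.39 (SD, n = 4 lines). Of the B-cell identity genes, SPIB was at 0.47 ± 0.30 and BLK at 0.21 ± 0.12 against duvelisib. IKZF1 was at 0.09 ± 0.09, FCRL3 at 0.05 ± 0.13 and EBF1 at -0.01 ± 0.17. Duvelisib minus idelalisib was 0.15 ± 0.27 for SPIB and 0.20 ± 0.20 for BLK. It was 0.21 ± 0.04 for IKZF1, 0.23 ± 0.17 for FCRL3 and 0.31 ± 0.10 for EBF1. The duvelisib values were not tested.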

How the data were processed

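The 24 arrays are the ibrutinib and idelalisib arrays of RIVA, TMD8, SUDHL2 and U2932, grouped by the labels; the members and lists were chosen with earlier results of these data known. Per the labels' protocols, column-kit RNA was biotin-labelled for the bead arrays, and GenomeStudio is named, without its version, per the submitters' processing notes. The authors deposited raw probe intensity, neither background-subtracted nor normalized, and a table of normalized log2 values. In 3 OCILY1 columns the authors deposited a detection p-value in place of intensity, with 39.0% to 40.2% of probes detected, which gave the stand-in level of 6.26 for the other arrays. The normalized table equals the series matrix (largest difference 0) and ranks the probes of the inhibitor arrays as the raw table does, whereas for the DMSO and PQR309 arrays of these lines the rank correlations were 0.816 to 0.910.

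The 60 raw arrays of the 4 lines were background corrected (normexp, offset 50), quantile normalized and log2 transformed together in limma. Of 47231 probes, 30113 had 1 symbol, 8 several and 17110 none. The brighter 50% of probes were kept and the brightest stood for its gene, leaving 12557 genes, of which 1726 had a mean under the level. Differences were taken within a line and time, since the labels pair arrays by line. Limma tested 4 line means, or 12 differences with a coefficient per line, and a moderated F test compared lines. Named genes are the 12 of smallest p or largest called size per direction over 3 times, 3 per single time, 5 per line, 8 of the F test, 2 or 3 per list, and the drug targets; other called genes named were chosen after their values were seen. The 34 lists were described by counts and medians only. The authors' table as a second source of DMSO values, and SUDHL2 without its dim DMSO array, were added after seeing the data. Alternatives and left-out arrays are in the closing section, scripts were tested on simulated data, and 0 per-sample columns were left unused. Versions were Python 3.11.15, pandas 2.3.3 and matplotlib 3.10.9, with R 4.3.3, limma 3.58.1 and data.table (version 1.17.8).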

Additional observations from a re-analysis of the deposited data

Results flagged for a closer look

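Among 132 named genes, 13 had 1 line far from the other 3 by Dixon's test. Chance picks out about 1 in 20 groups by this test when groups are not selected. Many of these genes were named by the same line differences, so that rate does not apply and the count is not compared with it. The differences are ibrutinib minus idelalisib in log2 units. TLR10 was at 1.20 in RIVA, against 0.25 to 0.35 in the other lines. In U2932, ABI3 was at 0.75 (others 0.06 to 0.16), LTA at -1.01 (others -0.02 to 0.15), RAB23 at -0.23 (others -0.33 to -0.32), LDHA at 0.036 (others 0.17 to 0.19) and BID at 0.028 (others 0.29 to 0.32). In SUDHL2, HNRNPA1P33 was at 0.80 (others -0.12 to -0.03), CD74 at -0.51 (others 0.55 to 0.68) and CLDND1 at -0.48 (others -0.28 to -0.26). In TMD8, PTMA was at -0.45 (others 0.46 to 0.59), IKZF1 at 0.42 (others 0.25 to 0.28), ATF3 at -0.056 (others -0.35 to -0.32) and CD8A at 0.065 (others -0.09 to -0.07). CD8A lay under the level that stands in for detection with both drugs in TMD8 and SUDHL2, so its differences there are not measured.

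The drug difference differed between lines in the moderated F test of limma for TNF (adjusted p = 0.00242), CCL3L3 (adjusted p = 0.00242), TCIRG1 (adjusted p = 0.00975), CXCL10 (adjusted p = 0.0133), TIPARP (adjusted p = 0.0375) and STXBP2 (adjusted p = 0.0419), 6 of 12557 genes. CCL3L3 lay under that level with ibrutinib in U2932 and with both drugs in TMD8, so its call is uncertain.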

How the results depend on the processing

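Limits: 1 array per line, time and drug, an unstated dose, and 4 lines; 1726 genes had a mean under the level that stands in for detection, and a difference there was not detectable. No value of a named gene that passed reversed its direction in any alternative run. Genes named within a line were chosen with 1 sign at all 3 times. Leaving out a time could therefore not reverse them, and F values have no sign, so only the other runs could have shown a reversal. Among named genes that did not pass, 12 values of 9 genes changed sign, all within 0.14 of 0. Over 3 times the count of 0 became 1 in a joint fit of 5 treatments (PPP1R15A, adjusted p = 0.00419), 1 in a joint fit of 3 inhibitors (PPP1R15A, 0.0469) and 2 with the line as a random block over 12 differences (PPP1R15A, 0.000311, and TIPARP, 0.00565). With no filter on dim probes SUDHL2 had 5 calls and the F test 10, and with the mean over a gene's probes SUDHL2 had 13 and the F test 31. With no replicate block, so line means unpaired, the limma count over 3 times stayed at 0, with 8 genes at an unadjusted p under 0.05, and no named gene passed over 3 times with or without pairing by line. With the authors' normalized values TMD8 had 321 calls, of which 299 were shared. Leaving out 1 line gave 0 to 6 calls over 3 times, 0 to 1 at 4 h, 0 to 1 at 8 h, 0 to 0 at 12 h and 0 to 0 for the change. Leaving out 1 time gave 0 to 86 in RIVA, 1 to 447 in TMD8, 0 to 7 in SUDHL2, 1 to 7 in U2932 and 0 to 47 in the F test. Of the values of named genes under an alternative, 1813 kept their side of the threshold, including those 12, 108 fell short of it and 15 passed it. The 1813 include values of genes that passed in neither run. Among genes named within a line or by the F test, 38 values fell short without the 4 h arrays and 10 kept their side. Without the 8 h arrays 32 fell short and 16 kept their side. Without the 12 h arrays 15 fell short, 31 kept their side and 2 passed. Fewer arrays entered where a time was left out.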
